A study of Mus musculus with 12 samples.

Results

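The data set describes what 4-octyl itaconate (OI), given before urban particulate matter (PM), did to the transcriptome of wild-type (WT) mouse macrophages. The members are 4 of the 12 RNA-seq libraries, chosen by label: 2 WT PM libraries and 2 WT OI+PM libraries. Of 48795 genes in the count tables, 10898 had more than 1.5 CPM (reads of the gene per 1e6 reads assigned to genes) in at least 2 of these 4 libraries and were tested. All cells were bone marrow-derived macrophages (BMDMs), which are grown in culture from mouse bone marrow with the growth factor M-CSF, from animals labelled C57BL/6 and WT. The WT PM group received PM at 20 μg/cm2 for 24 hours. The WT OI+PM group received 0.25 mM OI for 2 hours and then the same PM. A pair of unexposed WT control libraries is given for reference, and 4 libraries labelled Acod1-/- (strain C57BL/6NJ-Acod1em1(IMPC)J/J) received PM or OI+PM at the same doses. No library held OI without PM, so the effect of OI described here is the effect in PM-exposed cells. The labels do not say whether the 2 replicates of a group came from separate animals or cultures. The p-values therefore measure only the spread between libraries of a group, which may be technical. That spread is 1 estimate shared by all 12 libraries, not that of the 4 compared libraries alone.

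Itaconate is made inside activated macrophages by aconitate decarboxylase 1 (ACOD1), which takes cis-aconitate out of the TCA cycle. OI is an itaconate ester with an octyl chain that lets it enter cells. Itaconate and OI can modify cysteines of KEAP1, the protein that targets the transcription factor NRF2 for degradation, and NRF2 drives antioxidant and detoxifying genes through antioxidant response elements.

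The 4 libraries were of similar depth, from 33616577 to 35332094 counts assigned to genes. They were less alike within groups than the others. Between replicates, chi-square per degree of freedom over genes was 58.5 for WT OI+PM, 27.3 for WT PM and 3.0 for the WT control libraries, where 1 would mean sampling noise alone. For the libraries labelled Acod1-/- it was 2.61 (control), 8.32 (PM) and 4.16 (OI+PM). Because the estimate of the spread is shared with these more alike pairs, SEs and p-values may be too small for WT OI+PM against WT PM. The macrophage markers Adgre1, Csf1r, Itgam, Cd68, Lyz2, Fcgr1, Mertk and Spi1 were all present. For Adgre1, which encodes F4/80, the levels were 1472 and 1414 CPM in the PM libraries and 981.3 and 866.3 CPM in the OI+PM libraries. Cd68, a lysosomal macrophage marker, was at 1451 and 1634 CPM with PM and at 1705 and 1831 CPM with OI+PM. The label of the cells thus fits their markers. Throughout, CPM values are scaled with TMM factors (trimmed mean of M-values) and are levels, while log2 fold changes are differences.

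OI changed the expression of 1116 genes in PM-exposed WT macrophages by at least 2-fold at an adjusted p of 0.05 or less (edgeR's quasi-likelihood test, Benjamini-Hochberg adjustment), which is 10.2% of the genes tested. Of these differentially expressed genes (DEGs), 872 were lower with OI (8.0% of genes tested) and 244 were higher (2.24%). These shares are the background for the counts of list members that rose or fell. The lower DEGs also reached larger changes: 385 were at least 4-fold lower, against 37 at least 4-fold higher. For every DEG both OI+PM libraries lay on the same side of both PM libraries, but so did many other genes, 29.4% of all tested genes in the higher and 29.3% in the lower direction. The median log2 fold change over all tested genes was 0.02. Without the fold threshold 4780 genes (43.9%) passed the adjusted p. In total, 367 tested genes passed the CPM minimum in both PM libraries and neither OI+PM library, and 306 of them were lower DEGs. The reverse held for 69 genes, of which 44 were higher DEGs. Such genes had to differ, so counts are also given below for members above the minimum in all 4 libraries. Genes named below that passed only through the PM libraries include Rtp4, Ifit1, Ifit3, Ccl7, Cxcl10, Cx3cr1 and Cenpf. Kif4, Ube2c, Uhrf1, Tk1, Mcm10, Pclaf and Esco2 are others. In these bulk samples fewer cells of a type and less RNA per cell cannot be told apart.

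**Figure D1:**
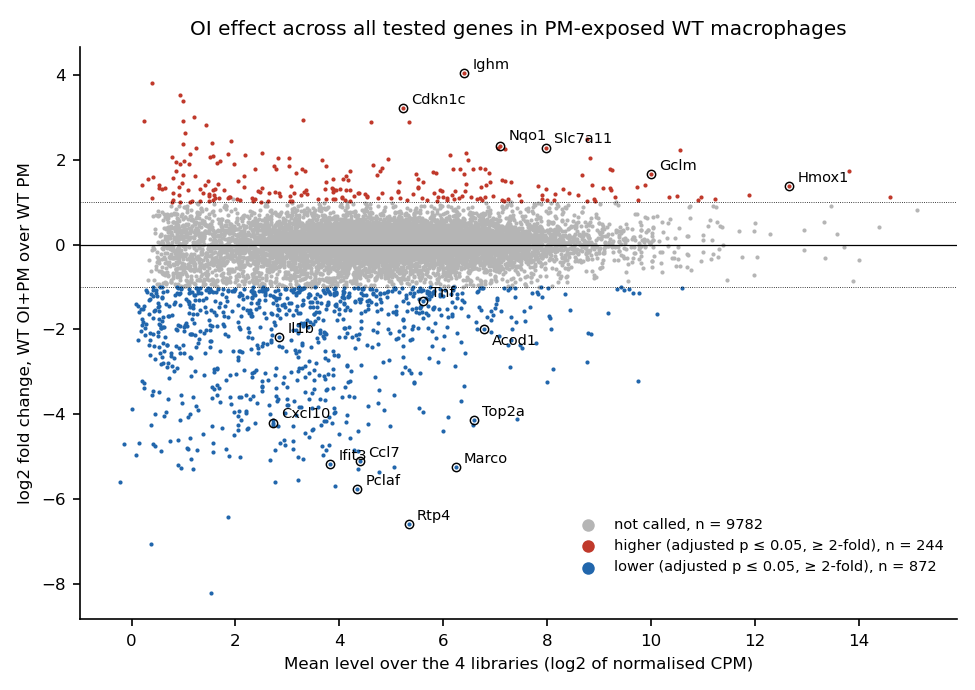
Each point is 1 of the 10898 tested genes, with its mean level over the 4 libraries (log2 of normalised CPM) on the x axis and the log2 fold change of WT OI+PM over WT PM on the y axis. The 872 lower DEGs (blue) reach much farther from 0 than the 244 higher DEGs (red), and dotted lines mark a 2-fold change.

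Among the genes that rose, the NRF2 targets formed the most complete group. Of 24 NRF2 target genes, all above the CPM minimum in the 4 libraries, 15 rose (62.5%), none fell and 9 did not pass the fold threshold. Of all tested genes, 2.24% rose and 8.0% fell. The median log2 fold change of the list was 1.13 against 0.02 over all genes. All 24 had an adjusted p of 0.05 or less in the higher direction (background 21.0%). Nqo1, a quinone reductase, was at 46.9 and 44.8 CPM with PM and at 209.3 and 247.6 CPM with OI+PM. Both OI+PM libraries were far above both PM libraries, and the control libraries were lower still, at 3.74 and 3.48 CPM. The increase was 4.98-fold (log2 fold change 2.32, SE 0.086, adjusted p = 2.43e-08). Gclc, the catalytic subunit of the enzyme that starts glutathione synthesis, was at 136.4 and 124.9 CPM with PM and at 761.0 and 720.1 CPM with OI+PM (log2 fold change 2.5, SE 0.071, adjusted p = 5.87e-09). Gclm, its modifier subunit, was at 497.6 and 479.9 CPM with PM and at 1504 and 1613 CPM with OI+PM (log2 fold change 1.67, SE 0.062, adjusted p = 2.32e-08). Both subunits were separated between the groups by far more than the replicates differed. Slc7a11, the cystine importer that supplies glutathione synthesis, was at 100.7 and 70.4 CPM with PM and at 440.8 and 396.3 CPM with OI+PM (log2 fold change 2.29, SE 0.15, adjusted p = 1.04e-06). Its PM replicates were the more unequal pair, without reaching the OI+PM libraries.

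Hmox1, which encodes the haem-degrading enzyme HO-1, was among the most abundant of these genes. Its level was 3366 and 3782 CPM with PM and 8406 and 10240 CPM with OI+PM, and the groups did not overlap (log2 fold change 1.38, SE 0.093, adjusted p = 1.36e-06). Srxn1, which repairs over-oxidised peroxiredoxins, was at 534.9 and 531.7 CPM with PM and at 2355 and 2624 CPM with OI+PM (log2 fold change 2.22, SE 0.073). Prdx1, a peroxide-removing peroxiredoxin, was at 6178 and 7030 CPM with PM and at 18560 and 25360 CPM with OI+PM (log2 fold change 1.73, SE 0.14). The 2 OI+PM libraries of Prdx1 differed from each other by more than the PM libraries did, yet both were above them. Txnrd1 (thioredoxin reductase 1), Gsta3 and Gstm1 (glutathione transferases), Abcc1 (an efflux pump for glutathione conjugates) and Osgin1 rose too, with log2 fold changes of 1.12 to 1.68. Me1, Pgd and Taldo1, which supply NADPH or act in the pentose phosphate pathway, rose by 1.04, 1.06 and 1.15 on the log2 scale, close to the threshold, and their calls were kept in 2, 3 and 3 of the 4 fits that left out 1 library. The most abundant member, the ferritin heavy chain gene Fth1, was at 24050 and 27620 CPM with PM and at 38190 and 52410 CPM with OI+PM, a log2 fold change of 0.81 (SE 0.13) below the fold threshold.

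The promoters of these genes were searched for the core of the antioxidant response element, TGACNNNGC (reverse complement GCNNNGTCA), on both strands of 300-base windows from 250 bases before to 50 bases after the start of the gene (RefSeq, GRCm38.p6). Windows were available for 20 of the 24 NRF2 target genes, and 9 of them (45.0%) held a match, against 14.0% of all 27025 genes with a window, 17.4% of the tested genes, 21.7% of the higher DEGs and 17.8% of the lower DEGs. The windows of 4 members that rose are shown because they hold these letters, which are in capitals. They lie at chr2:152105274-152105573 (Srxn1, plus strand), chr4:116685349-116685648 (Prdx1, plus strand), chr3:122245307-122245606 (Gclm, plus strand) and chr10:82858956-82859255 (Txnrd1, plus strand), and are written 5′ to 3′.
Srxn1: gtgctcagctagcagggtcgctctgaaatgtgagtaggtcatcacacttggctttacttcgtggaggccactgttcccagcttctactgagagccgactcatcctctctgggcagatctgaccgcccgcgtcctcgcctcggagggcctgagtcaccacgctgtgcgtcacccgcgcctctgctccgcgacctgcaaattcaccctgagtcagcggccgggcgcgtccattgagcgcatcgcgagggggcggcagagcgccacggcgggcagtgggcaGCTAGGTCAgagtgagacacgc
Prdx1: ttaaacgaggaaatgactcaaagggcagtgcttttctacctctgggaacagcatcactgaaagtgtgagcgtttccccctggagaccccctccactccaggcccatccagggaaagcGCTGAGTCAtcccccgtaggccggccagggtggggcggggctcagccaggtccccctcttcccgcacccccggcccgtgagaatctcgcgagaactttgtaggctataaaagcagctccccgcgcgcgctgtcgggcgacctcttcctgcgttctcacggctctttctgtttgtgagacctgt
Gclm: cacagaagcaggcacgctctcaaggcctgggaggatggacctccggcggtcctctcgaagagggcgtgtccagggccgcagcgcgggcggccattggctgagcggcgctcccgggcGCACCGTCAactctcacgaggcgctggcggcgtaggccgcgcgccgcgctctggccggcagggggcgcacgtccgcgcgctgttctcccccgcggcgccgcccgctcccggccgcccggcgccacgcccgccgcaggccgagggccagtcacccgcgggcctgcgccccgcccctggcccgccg
Txnrd1: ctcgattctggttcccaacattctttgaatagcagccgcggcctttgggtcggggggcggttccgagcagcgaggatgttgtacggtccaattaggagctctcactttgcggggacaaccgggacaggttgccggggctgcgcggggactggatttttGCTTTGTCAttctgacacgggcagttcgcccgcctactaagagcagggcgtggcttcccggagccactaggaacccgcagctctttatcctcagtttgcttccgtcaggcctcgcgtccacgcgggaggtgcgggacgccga
A match describes the letters in the window and shows no binding. The window of Nqo1 held no match, and Gclc and Hmox1 had no window in the table.

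**Figure D2:**
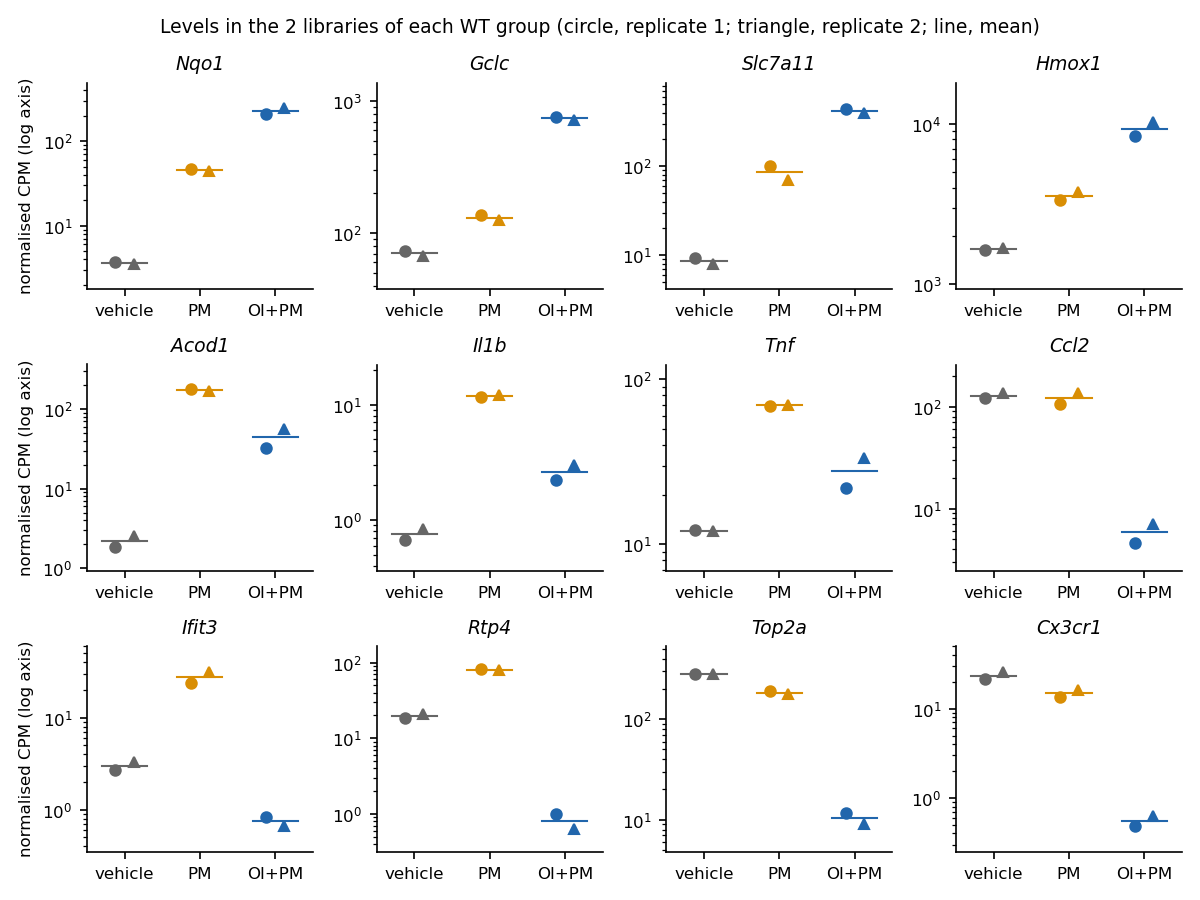
Normalised CPM (log axis) of 12 genes in the 2 WT control, 2 WT PM and 2 WT OI+PM libraries, with a line at each group's mean. For Nqo1, Gclc, Slc7a11 and Hmox1 the OI+PM libraries are the highest, and for the other 8 genes both OI+PM libraries are below both PM libraries.

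The NRF2 gene itself did not rise. Nfe2l2 was at 414.8 and 420.0 CPM with PM and at 346.7 and 365.3 CPM with OI+PM (log2 fold change -0.23, SE 0.056, adjusted p = 0.00815), a change smaller than 2-fold. Its inhibitor Keap1 was at 74.99 and 73.5 CPM with PM and at 73.4 and 76.5 CPM with OI+PM, and the groups overlapped. Of 10 genes for NRF2 and its regulators, 2 rose (20.0%) and none fell, against 2.24% and 8.0% of all tested genes. Sqstm1, an autophagy receptor that binds KEAP1, had a log2 fold change of 1.11 (SE 0.11) that was 0.88 without OI+PM replicate 2. Maff, a small MAF partner, had 1.18 (SE 0.18) and 0.90 without the same library.

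In the wider list of glutathione, thioredoxin and peroxide-removing genes, 6 of 31 tested genes rose (19.4%) and 4 fell (12.9%). Over all tested genes the shares were 2.24% and 8.0%. The median log2 fold change of the list was 0.20. Among the 30 above the CPM minimum in all 4 libraries 5 rose and 4 fell (median 0.16). Gss (glutathione synthetase) was at 47.95 and 53.5 CPM with PM and at 203.7 and 279.2 CPM with OI+PM, with no overlap (log2 fold change 2.25, SE 0.13, adjusted p = 5.16e-07). Its exons overlap those of Acss2, which was also higher (log2 fold change 2.00), and how the counting treated strand is not given in the sources used here, so reads of the pair may be shared. Gsta4, a glutathione transferase for lipid peroxidation products, was near the detection limit with PM at 0.342 and 0.346 CPM and reached 2.96 and 4.33 CPM with OI+PM, and it passed the minimum through the OI+PM libraries alone. Mgst2, Prdx6, Ggt5 and the glutathione-degrading Chac1 rose as well. The 4 genes that fell were Gpx3 and Gpx1 (glutathione peroxidases), Glrx (glutaredoxin) and Sod2 (mitochondrial superoxide dismutase). Sod2 was at 290.4 and 281.9 CPM with PM and at 104.5 and 154.5 CPM with OI+PM (log2 fold change -1.14, SE 0.14), and -0.89 without OI+PM replicate 1. Genes of this list were thus called in both directions, and the lower share was closer to that of all tested genes than the higher share was.

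The enzyme that makes itaconate was itself lower after OI. Acod1 (ENSMUSG00000022126.6, chr14:103046977-103056573, plus strand, GRCm38) was at 181.0 and 170.3 CPM with PM and at 32.5 and 56.2 CPM with OI+PM, against 1.86 and 2.51 CPM in the control libraries. Both OI+PM libraries were well below the PM libraries and above the controls. The level with PM was 3.96-fold that with OI+PM (log2 fold change -1.99, SE 0.21, adjusted p = 3.68e-05). The OI+PM replicates differed from each other by -0.79 on the log2 scale, and the fold change ranged from -2.44 to -1.64 when 1 library was left out.

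Many cytokine and chemokine genes were lower with OI. Of 47 in the list, 28 were tested, 14 fell, none rose and 14 did not pass the fold threshold, with a median log2 fold change of -0.98. Among the 24 above the CPM minimum in all 4 libraries, 10 fell and the median was -0.57. For comparison, 8.0% of all tested genes fell and 2.24% rose. Tnf was at 69.1 and 70.3 CPM with PM and at 21.9 and 33.4 CPM with OI+PM (log2 fold change -1.34, SE 0.15, adjusted p = 6.83e-05). Il1b was at 11.5 and 12 CPM with PM and at 2.21 and 3.0 CPM with OI+PM (log2 fold change -2.18, SE 0.15, adjusted p = 1.72e-06). For both cytokines the OI+PM libraries were below the PM libraries but above the control libraries, which held 12.2 and 12.1 CPM for Tnf and 0.673 and 0.845 CPM for Il1b. Il1f9, a cytokine gene outside the list, rose and is described further on. Il6 was too low to be tested, with 16 and 17 reads with PM, 1 and 0 with OI+PM and none in the controls.

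Of the members with a mean of at least 5 CPM, the monocyte chemokine genes Ccl7 and Ccl2 had the largest decreases. Ccl2 was at 107.2 and 136.8 CPM with PM and at 4.63 and 7.06 CPM with OI+PM (log2 fold change -4.39, SE 0.19, adjusted p = 5.44e-08). Ccl7 was at 35.9 and 45.6 CPM with PM and at 0.807 and 1.6 CPM with OI+PM (log2 fold change -5.10, SE 0.23). Neither gene was higher with PM than in the control libraries, which held 120.3 and 136.5 CPM of Ccl2 and 38.5 and 43.2 CPM of Ccl7, so the OI+PM libraries were below the unexposed level as well. Cxcl10, an interferon-inducible chemokine for T cells, was at 9.58 and 15.5 CPM with PM and at 0.598 and 0.766 CPM with OI+PM (log2 fold change -4.20, SE 0.29). Ccl9, the most abundant member, was at 1653 and 1690 CPM with PM and at 502.9 and 570.6 CPM with OI+PM (log2 fold change -1.64, SE 0.066). Il1a (overlapping Gm14023), Il1rn (the IL-1 receptor antagonist), Ccl4, Ccl5, Ccl6, Ccl12, Cxcl16 and Tnfsf10 fell too. Some other chemokine genes did not pass the test. Cxcl2 was at 124.8 and 120.6 CPM with PM and at 87.9 and 160.5 CPM with OI+PM, with overlapping groups (log2 fold change 0.02, SE 0.23), and the same held for Cxcl1 and Cxcl3. Cxcl5 was too low to be tested, with 7 and 6 reads with PM and 2 in each OI+PM library.

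NF-kB is a transcription factor family that drives inflammatory genes downstream of Toll-like and cytokine receptors. Of 29 tested NF-kB factors, feedback genes and inducible targets, 10 fell (34.5%), none rose and 19 did not pass the fold threshold. Of all tested genes, 8.0% fell and 2.24% rose. The median log2 fold change of the list was -0.64, and 9 of the 28 above the minimum in all 4 libraries fell. The acute phase gene Saa3 was at 42.8 and 45.1 CPM with PM and at 2.72 and 3.60 CPM with OI+PM (log2 fold change -3.80, SE 0.13, adjusted p = 1.43e-08). Marcksl1 and Traf1, a TNF receptor adaptor, had log2 fold changes of -3.56 and -2.31. The subunit genes themselves moved less. Nfkb1 and Nfkb2 had log2 fold changes of -0.58 and -0.64, Rela of -0.18, and Tnfaip2, the most abundant member, of -0.12 (SE 0.051, adjusted p = 0.0766). Among 22 tested Toll-like receptors and adaptors 5 fell (22.7%, against 8.0% of all tested genes) and none rose. Tlr2, a receptor for bacterial lipopeptides, was at 92.2 and 90.4 CPM with PM and at 12.6 and 16.3 CPM with OI+PM, close to the 16.9 and 16.8 CPM of the controls (log2 fold change -2.67, SE 0.11). Tlr3 and Tlr1 fell by 1.39 and 1.25 on the log2 scale. For Tlr4 (log2 fold change -0.15, SE 0.13) and Myd88 (-0.04, SE 0.085) the test was not passed.

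Interferon-stimulated genes (ISGs), which cells switch on when interferon binds its receptor, were lower nearly throughout. Of 46 tested ISGs, 42 fell by at least 2-fold (91.3%, against 8.0% of all tested genes) and none rose. All 46 had an adjusted p of 0.05 or less in the lower direction (background 22.8%). The median log2 fold change was -2.46. Of these, 10 passed the CPM minimum only through the PM libraries, and among the 35 above the minimum in all 4 libraries 31 fell (median -2.07). Rtp4 had the largest decrease among DEGs with a mean of at least 5 CPM, at 81.0 and 78.7 CPM with PM and at 0.986 and 0.633 CPM with OI+PM (log2 fold change -6.60, SE 0.14, adjusted p = 3.47e-09). Both OI+PM libraries were below the controls too, which held 18.4 and 20.6 CPM. Ifit1 was at 36.4 and 43.4 CPM with PM and at 0.926 and 1.10 CPM with OI+PM (log2 fold change -5.30, SE 0.18). Ifit3 was at 23.9 and 31.0 CPM with PM and at 0.837 and 0.667 CPM with OI+PM (log2 fold change -5.18, SE 0.20). IFIT proteins bind viral RNA. Rtp4, Ifit1 and Ifit3 passed the CPM minimum only through the PM libraries, so they had to differ in that direction.

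The antiviral effectors Mx1, Mx2, Oas2, Oas3 and Rsad2, the guanylate-binding proteins Gbp2, Gbp3, Gbp5 and Gbp7 and the ubiquitin-like modifier Isg15 fell as well. Isg15 was at 28.1 and 33.8 CPM with PM and at 5.98 and 7.80 CPM with OI+PM (log2 fold change -2.17). So did genes of transcription factors of the interferon response, with log2 fold changes of -1.71 for Stat2, -1.51 for Irf9 and -2.88 for Irf7, which overlaps Phrf1. The 4 ISGs short of the fold threshold were Ifi35, Isg20, Samhd1 and Irf1. Of 15 tested interferon receptors and signalling components none passed both thresholds, while 6 passed the adjusted p in the lower direction (background 22.8%) and 2 in the higher direction (background 21.0%). The largest decreases were just under 2-fold, in the DNA sensor gene Cgas (log2 fold change -0.97, SE 0.13, overlapping Gm8093) and the feedback inhibitor gene Socs3 (-0.97, SE 0.20). Socs3 was called lower after the length correction (-1.04). Ifnar1, a type I interferon receptor chain, had a log2 fold change of -0.60 (SE 0.072). Ifnb1, the gene of interferon beta, was not tested, with a level of at most 0.0285 CPM in any of the 4 libraries.

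ISG promoters were searched in the same windows for the interferon-stimulated response element (ISRE) on both strands; its letters are a pair of GAAA runs set 2 bases apart. A match was present for 22 of 36 ISGs with a window (61.1%), for 11% of lower DEGs, 3.26% of higher DEGs and 3.99% of all genes with a window. The windows of 3 ISGs that fell are shown with the matches in capitals. They are chr19:34640639-34640938 (Ifit1, plus strand), chr19:34583279-34583578 (Ifit3, plus strand) and chr4:156200769-156201068 (Isg15, minus strand), where the 3 matches of Isg15 overlap.
Ifit1: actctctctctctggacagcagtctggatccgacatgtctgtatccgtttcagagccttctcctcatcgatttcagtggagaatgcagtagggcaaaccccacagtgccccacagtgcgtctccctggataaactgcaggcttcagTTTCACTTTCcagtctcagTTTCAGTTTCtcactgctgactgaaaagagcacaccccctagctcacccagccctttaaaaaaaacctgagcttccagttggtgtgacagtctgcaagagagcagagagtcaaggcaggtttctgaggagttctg
Ifit3: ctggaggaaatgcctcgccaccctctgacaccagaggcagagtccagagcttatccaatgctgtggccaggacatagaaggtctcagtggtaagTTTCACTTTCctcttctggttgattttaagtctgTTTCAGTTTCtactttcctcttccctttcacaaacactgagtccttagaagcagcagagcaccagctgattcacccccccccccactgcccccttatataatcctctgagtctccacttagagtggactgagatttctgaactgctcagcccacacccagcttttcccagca
Isg15: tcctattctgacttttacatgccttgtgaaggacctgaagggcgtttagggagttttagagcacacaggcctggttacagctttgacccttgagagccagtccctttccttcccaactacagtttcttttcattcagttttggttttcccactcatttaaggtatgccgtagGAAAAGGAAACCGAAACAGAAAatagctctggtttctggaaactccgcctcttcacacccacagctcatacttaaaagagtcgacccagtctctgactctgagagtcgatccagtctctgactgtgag
The lower DEG set holds the ISGs themselves, so its share is not independent of theirs.

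Genes of cell division fell together. Of 50 tested mitosis and cytokinesis genes 48 fell (96.0%, against 8.0% of all tested genes) and none rose, with a median log2 fold change of -3.61. For 19 of them only the PM libraries passed the CPM minimum, and among the 28 above it in all 4 libraries 26 fell (median -2.95). Top2a, the topoisomerase that untangles chromosomes, was at 188.7 and 176.1 CPM with PM and at 11.7 and 9.0 CPM with OI+PM, against 281.2 and 279.5 CPM in the controls (log2 fold change -4.13, SE 0.12, adjusted p = 6.82e-09). Mki67, which encodes the proliferation antigen Ki-67, was at 198.1 and 161.5 CPM with PM and at 11.5 and 7.26 CPM with OI+PM (log2 fold change -4.25). Cenpf, a kinetochore gene, was at 19.9 and 16.1 CPM with PM and at 0.478 and 0.267 CPM with OI+PM (log2 fold change -5.56, SE 0.27). All 3 genes were lower with PM than in the controls and lower again with OI+PM. Cyclin A2 (Ccna2) and the kinesins Kif4 and Kif11 fell by 5.26, 5.02 and 4.88 on the log2 scale. Ccna2 and Kif4 overlap Exosc9 and Pdzd11. Smc4 and Cenpa did not pass the fold threshold.

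DNA replication showed the same direction. Of 40 tested replication and nucleotide synthesis genes 32 fell (80.0%, against 8.0% of all tested genes) and none rose (median log2 fold change -2.07). Among the 33 above the minimum in all 4 libraries 26 fell (median -1.55). Uhrf1, which maintains DNA methylation at replication, was at 54.5 and 50.8 CPM with PM and at 1.52 and 1.0 CPM with OI+PM (log2 fold change -5.37, SE 0.14). Tk1 (thymidine kinase, overlapping Afmid) and Mcm10 had log2 fold changes of -5.71 and -4.84, and the replicative helicase genes Mcm2 to Mcm7 ranged from -3.94 (Mcm5) to -2.06 (Mcm6). Mcm7 overlaps Cops6 and Ap4m1. Pcna, the sliding clamp gene and the most abundant member, did not pass the adjusted p. It was at 239.0 and 280.3 CPM with PM and 236.7 and 264.6 CPM with OI+PM (log2 fold change -0.05, SE 0.080). After the length correction Pcna passed the adjusted p but not the fold threshold (-0.15). The 10 largest decreases also held Pclaf, a PCNA-binding factor (log2 fold change -5.78), and Esco2, a cohesin acetyltransferase (-5.61).

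Regulators of the G1 phase split. Of 24 tested G1 cyclin, CDK, inhibitor and E2F genes 9 fell (37.5%) and 2 rose (8.33%), against 8.0% and 2.24% of all tested genes. Of the 22 above the minimum in all 4 libraries 7 fell and 2 rose. Cyclin D1 (Ccnd1) was at 298.7 and 294.6 CPM with PM and at 60.6 and 53.7 CPM with OI+PM (log2 fold change -2.37, SE 0.086). Its count overlaps LTO1. Ccne1, Ccne2, Ccnd2, E2f2, E2f7, E2f8, Rbl1 and Cdkn2c fell as well. The 2 that rose encode CDK inhibitors. Cdkn1c (p57) was at 6.65 and 7.75 CPM with PM and at 59.1 and 76.4 CPM with OI+PM (log2 fold change 3.23, SE 0.14, adjusted p = 6.5e-08). Cdkn2b (p15) was at 10.4 and 10.9 CPM with PM and at 34.4 and 44.4 CPM with OI+PM (log2 fold change 1.88, SE 0.12). Cdkn1a (p21), the most abundant member, had a log2 fold change of 0.43 (SE 0.074). Of 16 tested p53 target genes 1 fell, Sesn1, and none rose, a lower share (6.25%) near the 8.0% of all tested genes.

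Mitotic promoters often carry the cell cycle genes homology region, whose core letters TTTGAA (reverse complement TTCAAA) were searched on both strands. The windows of 32 of 42 mitosis genes (76.2%) held them, against 20.2% of all genes with a window, 26.9% of lower DEGs, 14.3% of the tested genes, 19.0% of higher DEGs and 15.6% of the replication list. The lower DEGs include the mitosis genes that fell. The windows of 3 mitosis genes that fell are shown with the match in capitals: chr1:189688037-189688336 (Cenpf, minus strand), chr19:37376132-37376431 (Kif11, plus strand) and chr2:164769679-164769978 (Ube2c, plus strand).
Cenpf: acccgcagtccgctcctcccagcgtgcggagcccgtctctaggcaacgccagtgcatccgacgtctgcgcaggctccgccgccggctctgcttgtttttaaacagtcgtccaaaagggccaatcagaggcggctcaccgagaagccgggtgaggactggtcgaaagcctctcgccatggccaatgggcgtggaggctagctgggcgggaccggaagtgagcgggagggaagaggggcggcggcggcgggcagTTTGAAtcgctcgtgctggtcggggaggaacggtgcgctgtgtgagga
Kif11: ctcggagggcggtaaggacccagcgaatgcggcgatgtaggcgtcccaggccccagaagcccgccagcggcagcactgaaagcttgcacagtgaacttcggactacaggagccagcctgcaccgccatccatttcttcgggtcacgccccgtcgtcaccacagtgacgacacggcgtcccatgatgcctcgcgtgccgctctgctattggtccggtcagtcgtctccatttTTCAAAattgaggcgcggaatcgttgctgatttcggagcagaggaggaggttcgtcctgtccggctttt
Ube2c: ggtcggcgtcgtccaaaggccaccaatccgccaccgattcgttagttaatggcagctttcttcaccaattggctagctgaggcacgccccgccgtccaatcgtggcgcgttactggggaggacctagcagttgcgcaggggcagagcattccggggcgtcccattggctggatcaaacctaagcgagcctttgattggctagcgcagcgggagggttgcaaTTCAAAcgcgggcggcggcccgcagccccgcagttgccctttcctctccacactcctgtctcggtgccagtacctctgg
Ube2c, which encodes a ubiquitin-conjugating enzyme of mitotic exit, was at 22.3 and 25.3 CPM with PM and at 1.22 and 1.27 CPM with OI+PM.

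Besides NRF2 targets, genes of the integrated stress response rose. In this response phosphorylation of eIF2α favours translation of ATF4, which induces amino acid synthesis and transport genes. Of 31 tested genes 12 rose, none fell and 19 did not pass the fold threshold (median log2 fold change 0.78). The share that rose was 38.7%, against 2.24% of all tested genes. Asns, asparagine synthetase, was at 40.8 and 44.7 CPM with PM and at 126.0 and 167.9 CPM with OI+PM (log2 fold change 1.78, SE 0.13, adjusted p = 2.5e-06). Gdf15, a secreted stress cytokine, was at 32.6 and 32.9 CPM with PM and at 96.2 and 128.0 CPM with OI+PM (log2 fold change 1.77, SE 0.14). Trib3, a pseudokinase that restrains ATF4, was at 13.2 and 12.5 CPM with PM and at 34.2 and 46.5 CPM with OI+PM (log2 fold change 1.65, SE 0.13). In each of these the second OI+PM library was the higher one, and both were above the PM libraries. Atf4, Atf5, Ddit3 (CHOP), Phgdh, Mthfd2, Pck2, Slc3a2, Cars and Eif4ebp1 rose by 1.07 to 1.49 on the log2 scale. Atf5 and Ddit3 overlap Nup62 and Mars, and the calls of Atf4, Ddit3 and Cars were kept in 3 of the 4 fits without 1 library. Atf3, the most abundant member, had a log2 fold change of 0.98 (SE 0.059), just under the threshold. Of 16 heat shock response genes 2 rose (12.5%, against 2.24% of all tested genes). They were the inducible Hsp70 genes Hspa1a (log2 fold change 1.55, SE 0.17) and Hspa1b (1.29, SE 0.18). Hspa1a and Hspa1b are near-identical copies whose reads may have been split between them, and Hspa1b was at 0.97 without OI+PM replicate 2.

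Macrophage identity genes were called in the lower direction alone. Of 33 tested macrophage identity genes 15 fell (45.5%), none rose and 18 did not pass the fold threshold (median log2 fold change -0.86). Of all tested genes, 8.0% fell and 2.24% rose. Among the 31 above the minimum in all 4 libraries 13 fell (median -0.74). Cx3cr1, the fractalkine receptor, was at 13.6 and 16.1 CPM with PM and at 0.478 and 0.633 CPM with OI+PM (log2 fold change -4.74, SE 0.22, adjusted p = 1.06e-07). C1qa, a chain of complement C1q, was at 134.4 and 171.3 CPM with PM and at 13.8 and 16.3 CPM with OI+PM (log2 fold change -3.35, SE 0.13), and C1qb and C1qc had -2.76 and -2.95. The formyl peptide receptor gene Fpr2 was at 21.8 and 19.6 CPM with PM and at 1.67 and 2.27 CPM with OI+PM (log2 fold change -3.40, SE 0.21). Complement C3, the chemokine receptor Ccr2 and the transcription factor Maf fell too. Among the 8 markers used to check the cell type, Fcgr1 (log2 fold change -1.94) and Mertk (-1.11) were in this group. Mertk kept its call in 2 of the 4 fits without 1 library. Lyz2, the most abundant member at 17660 and 21220 CPM with PM and 9754 and 11700 CPM with OI+PM, had a log2 fold change of -0.86 (SE 0.11). Lyz2 was called lower after the length correction (-1.02), which gave 17 lower calls in the list. Trem2, Tyrobp and Fcgr3 had log2 fold changes of 0.53, 0.30 and 0.34, which did not pass the fold threshold.

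Scavenger receptors and C-type lectins moved in both directions. Of 18 tested genes 9 fell and 3 rose (median log2 fold change -0.93), and of the 17 above the minimum in all 4 libraries 8 fell. Of all tested genes, 8.0% fell and 2.24% rose. Marco, a scavenger receptor that binds particles, was at 137.3 and 157.0 CPM with PM and at 3.26 and 4.50 CPM with OI+PM, close to the 3.12 and 2.64 CPM of the controls (log2 fold change -5.25, SE 0.16, adjusted p = 6.84e-09). Clec4e (Mincle) was at 281.7 and 267.7 CPM with PM and at 30 and 44.4 CPM with OI+PM (log2 fold change -2.89, SE 0.17). Mrc1 (CD206) was at 287.0 and 233.2 CPM with PM and at 65.1 and 43.5 CPM with OI+PM (log2 fold change -2.26, SE 0.17). The beta-glucan receptor gene Clec7a went the other way, at 468.7 and 481.1 CPM with PM and at 1212 and 1218 CPM with OI+PM (log2 fold change 1.36, SE 0.057, adjusted p = 5.44e-08). Clec4d and Clec4n, with log2 fold changes of 1.09 and 1.05, were no longer called after a correction for gene length or without OI+PM replicate 2, and Clec4d also not without PM replicate 1. Of 9 tested MHC class II and co-stimulation genes 5 fell and none rose, among them the invariant chain Cd74 (log2 fold change -2.34) and Cd83 (-1.60). Cd74 was at 10.4 and 9.89 CPM with PM. Among the 7 above the minimum in all 4 libraries 3 fell, and the median moved from -1.08 to -0.61.

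Markers of other cell types were at or near 0, with exceptions. The summed B cell markers were 11.3 and 14.7 CPM with PM and 135.2 and 185.9 CPM with OI+PM. Ighm gave most of each sum, and Cd79b most of the rest with PM. Ighm, the immunoglobulin mu heavy chain gene, had the largest increase among DEGs with a mean of at least 5 CPM, at 8.84 and 10.4 CPM with PM and at 134.1 and 184.8 CPM with OI+PM (log2 fold change 4.05, SE 0.18, adjusted p = 7.98e-08). The other B cell markers did not rise with it: Cr2 had no reads in the 4 libraries, Cd79a had 1 read in all and Cd79b fell. Cd79b passed the CPM minimum only through the PM libraries, so it had to differ in that direction. The summed neutrophil markers were 13.2 and 19.7 CPM with PM and 29.8 and 60.5 CPM with OI+PM. S100a8 gave 9.96 and 15.3 CPM of the PM sums and 28.7 and 59.6 CPM of the OI+PM sums (log2 fold change 1.81, SE 0.30). S100a9 went from 44 and 75 reads with PM to 14 reads in each OI+PM library, Ltf from 25 to 1, and Ly6g and Retnlg had none. T cell, dendritic cell, mast cell, erythroid and stromal lists had at most 1 gene tested. The T cell and dendritic cell sums were mostly Cd28 and Itgax, neither of which passed both thresholds, and Cd3e, Cd3g, Trac, Flt3 and Ccr7 had no reads in the 4 libraries. The mast cell list had reads mostly of Gata2, with 23 and 34 with PM and 49 and 66 with OI+PM, and none of Cpa3 or Mcpt4. The stromal sum was 1.51 and 1.36 CPM with PM and 0.54 and 0.27 CPM with OI+PM. The part of such cells in the results was not tested. Of 6 osteoclast markers 4 were tested and 1 fell (25.0%, against 8.0% of all tested genes).

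Genes for matrix, lipid and amino acid handling gave mixed counts. Of 14 metalloproteinase and matrix genes 5 fell and 2 rose, or 1 after the length correction, which left Mmp19 uncalled. Before that correction the shares were 35.7% lower and 14.3% higher, against 8.0% and 2.24% of all tested genes. Of the 13 above the minimum in all 4 libraries 4 fell. Mmp9, a gelatinase, was at 481.3 and 439.1 CPM with PM and at 49.6 and 47.2 CPM with OI+PM (log2 fold change -3.25, SE 0.078, adjusted p = 3.47e-09), while the macrophage elastase gene Mmp12 was at 15410 and 15660 CPM with PM and at 32380 and 35070 CPM with OI+PM (log2 fold change 1.12, SE 0.061). Both pairs were tight, and Mmp14 and Mmp27 went with Mmp9. Of 12 alternative activation and arginine metabolism genes 3 fell and 3 rose. With the minimum in all 4 libraries 2 of 11 fell, and after the length correction 2 rose. Odc1, which makes putrescine from ornithine, was at 21.0 and 21.9 CPM with PM and at 60.1 and 75.5 CPM with OI+PM (log2 fold change 1.66, SE 0.11). Egr2 rose by 1.43 on the log2 scale. Ass1 had a log2 fold change of 1.10 that was 0.98 after the length correction and 0.75 without OI+PM replicate 2.

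Among 22 lipid handling genes Angptl4, a lipoprotein lipase inhibitor, rose from 24.1 and 28.2 CPM with PM to 104.2 and 122.9 CPM with OI+PM (log2 fold change 2.12, SE 0.098). Abca1, the cholesterol exporter, fell from 152.1 and 104.9 CPM with PM to 9.23 and 6.07 CPM with OI+PM (log2 fold change -4.06, SE 0.22), and Nr1h3, the gene of its activator LXRα, had -1.21 (SE 0.13). Ppard rose by 1.27 on the log2 scale. Cd36 was at 8047 and 7533 CPM with PM and at 15670 and 13750 CPM with OI+PM (log2 fold change 0.92, SE 0.070), under the fold threshold. Of 18 eicosanoid genes 5 rose and 2 fell, and of the 17 above the minimum in all 4 libraries 5 rose and 1 fell. The shares of the 18 were 27.8% higher and 11.1% lower, against 2.24% and 8.0% of all tested genes. After the length correction 3 were higher, without Alox5ap (log2 fold change 1.12, then 0.96) and Pla2g7 (1.06, then 0.98). The arachidonate-releasing phospholipase gene Pla2g4a was at 64.6 and 62.5 CPM with PM and at 176.2 and 175.7 CPM with OI+PM (log2 fold change 1.47, SE 0.060), Ptgr1, which inactivates leukotriene B4, had 1.79 (SE 0.13) and the prostaglandin E2 receptor gene Ptger2 had 1.47 (SE 0.085). Ptgs2 (COX-2) was at 36.3 and 30.8 CPM with PM and at 21.8 and 29.5 CPM with OI+PM and did not pass the test (log2 fold change -0.39, SE 0.15, adjusted p = 0.0598). Of 21 AP-1 and immediate early genes 2 rose (Fosl1, overlapping Ccdc85b, and Dusp5) and 1 fell (Klf2), shares of 9.52% and 4.76% against 2.24% and 8.0% of all tested genes.

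Some large lists held no DEG. None of 27 glycolysis and HIF-1 targets, 70 nuclear-encoded respiratory chain subunits, 67 cytosolic ribosomal proteins or 31 proteasome subunits was called, and in the TCA cycle list of 21 genes Acod1 was the 1 gene called. Of 38 lysosome and autophagy genes 1 rose (Gabarapl1), a share of 2.63% that is near the 2.24% of all tested genes. Of 19 iron and haem genes 3 fell (15.8%, against 8.0% of all tested genes), or 2 of the 18 above the minimum in all 4 libraries. The respiratory chain, ribosomal and proteasome lists, whose genes are short, had small positive medians of 0.24, 0.35 and 0.28, which were 0.10, 0.21 and 0.21 after a correction for gene length. Glycolysis had a median of -0.03.

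**Figure D3:**
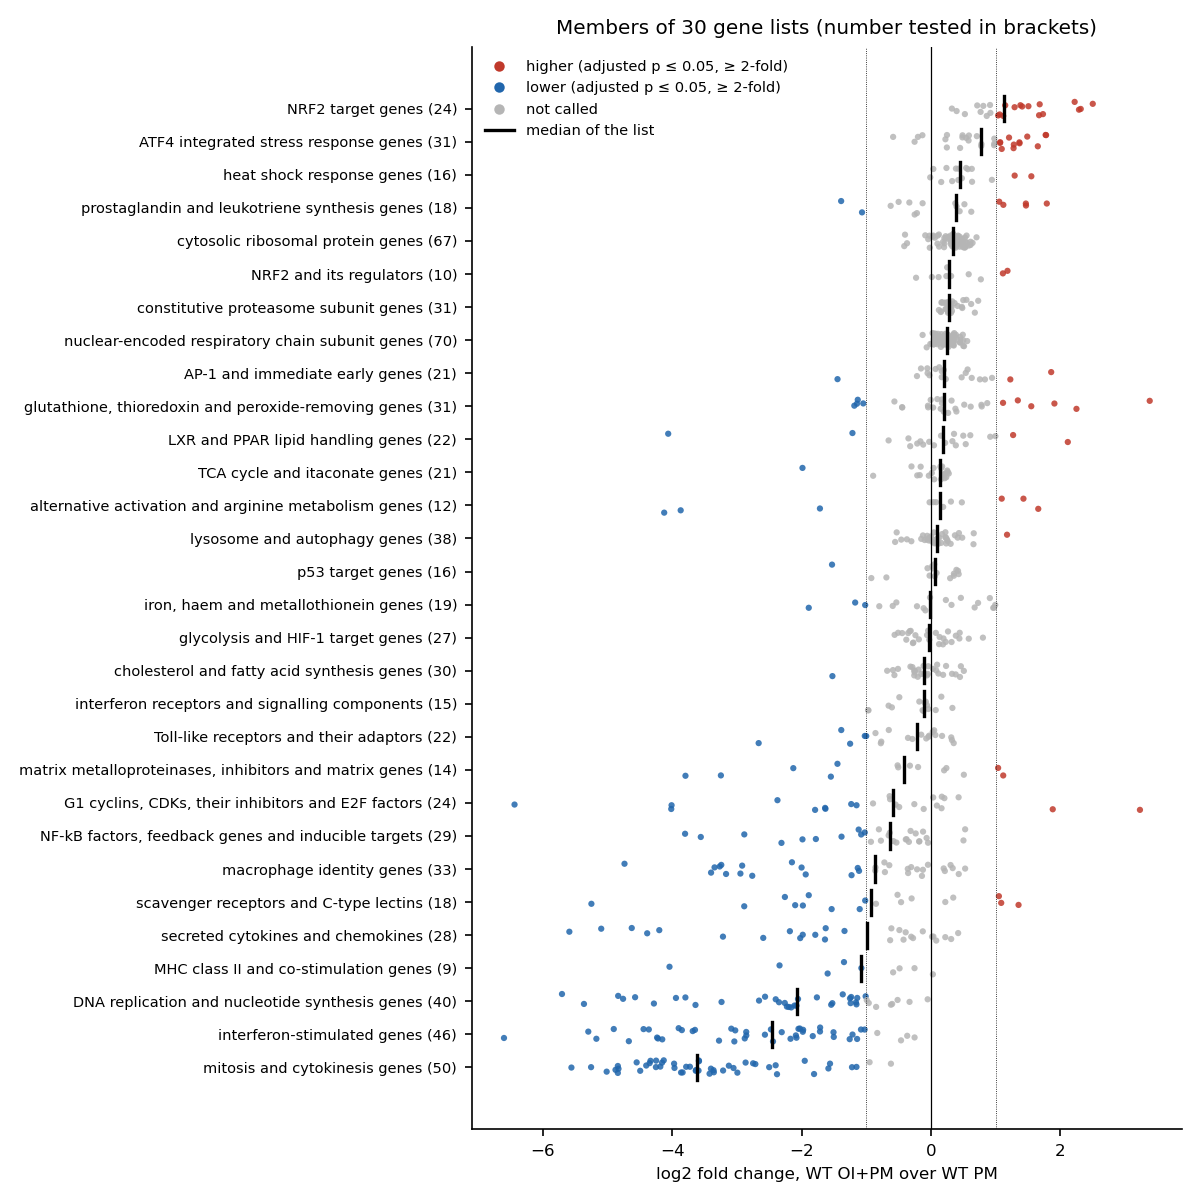
Log2 fold changes of WT OI+PM over WT PM for the tested members of 30 gene lists, ordered by the list's median (black bar), with DEGs in red (higher) and blue (lower) and grey for genes not called. NRF2 targets lie at the top with a median of 1.13, and mitosis genes, ISGs and DNA replication genes lie at the bottom with medians of -3.61, -2.46 and -2.07.

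The remaining genes among the 10 largest increases are of varied kinds. Il1f9, which encodes the cytokine IL-36γ, was at 9.76 and 9.28 CPM with PM and at 65.3 and 76.9 CPM with OI+PM (log2 fold change 2.9, SE 0.12). The glycine transporter gene Slc6a9 was at 5.91 and 5.65 CPM with PM and at 41.9 and 44.7 CPM with OI+PM (log2 fold change 2.91, SE 0.11), and Slc16a9, a monocarboxylate transporter family gene, was at 2.02 and 2.54 CPM with PM and at 19.3 and 15.7 CPM with OI+PM (log2 fold change 2.94, SE 0.15). Layn, which encodes the hyaluronan receptor layilin, was at 45.9 and 45.0 CPM with PM and at 214.0 and 226.6 CPM with OI+PM (log2 fold change 2.28, SE 0.068). Groups without overlap were required for this ranking, so their separation is no further result. All 4 genes were lower in the controls than with PM.

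The 2 OI+PM libraries differed from each other along gene length. Exonic length was known for 10879 tested genes. In the shortest of 10 equal bins of genes (57 to 1795 bases) the median difference of OI+PM replicate 1 minus replicate 2 was -0.42 on the log2 scale, and in the longest bin (9889 to 123179 bases) it was 0.38. Spearman's rho of the difference with length was 0.63; its points are genes, which share the same libraries. The PM pair differed in the same direction, with medians of -0.26 and 0.27 (rho 0.62). For the other pairs rho was 0.29 (WT control), 0.30 (OI+PM labelled Acod1-/-), -0.37 (PM labelled Acod1-/-) and -0.085 (control labelled Acod1-/-), and their medians in these bins lay between -0.11 and 0.073. In all, 105 genes (0.963%) differed at least 2-fold between the OI+PM replicates. Of these, 88 were higher in replicate 1, with a median length of 7017 bases, and 17 in replicate 2, with a median of 1793 bases, and 66 of the 105 were not DEGs.

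This spread reached the OI effect in part. The median log2 fold change of OI+PM over PM went from 0.20 in the shortest bin to -0.12 in the longest. Against the PM mean, OI+PM replicate 1 was nearly flat (-0.02 and 0.06) and replicate 2 sloped from 0.40 to -0.33. The PM libraries bore on it too, since the medians were 0.086 and 0.034 without PM replicate 1 and 0.34 and -0.26 without PM replicate 2. Spearman's rho of fold change with length was -0.19 with the 4 libraries, -0.34 without OI+PM replicate 1, 0.076 without OI+PM replicate 2, -0.015 without PM replicate 1 and -0.30 without PM replicate 2. The link with length thus moved with the libraries left out of either group. Higher DEGs made up 4.14% of the shortest bin and 1.1% of the longest, whereas lower DEGs made up 7.9% and 7.44%. With the length correction the shares were 2.85% and 1.47% for higher DEGs and 10.3% and 6.34% for lower DEGs. After each library was corrected for its own trend with length, 1108 genes were DEGs, of which 1053 were shared with the uncorrected set (210 higher and 843 lower). That correction also removes any real change that follows length. Without 1 library at a time, 894 of the 1116 DEGs kept their call in all 4 fits, 165 higher and 729 lower. The part of RNA quality or library preparation in the slope was not tested.

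**Figure D4:**
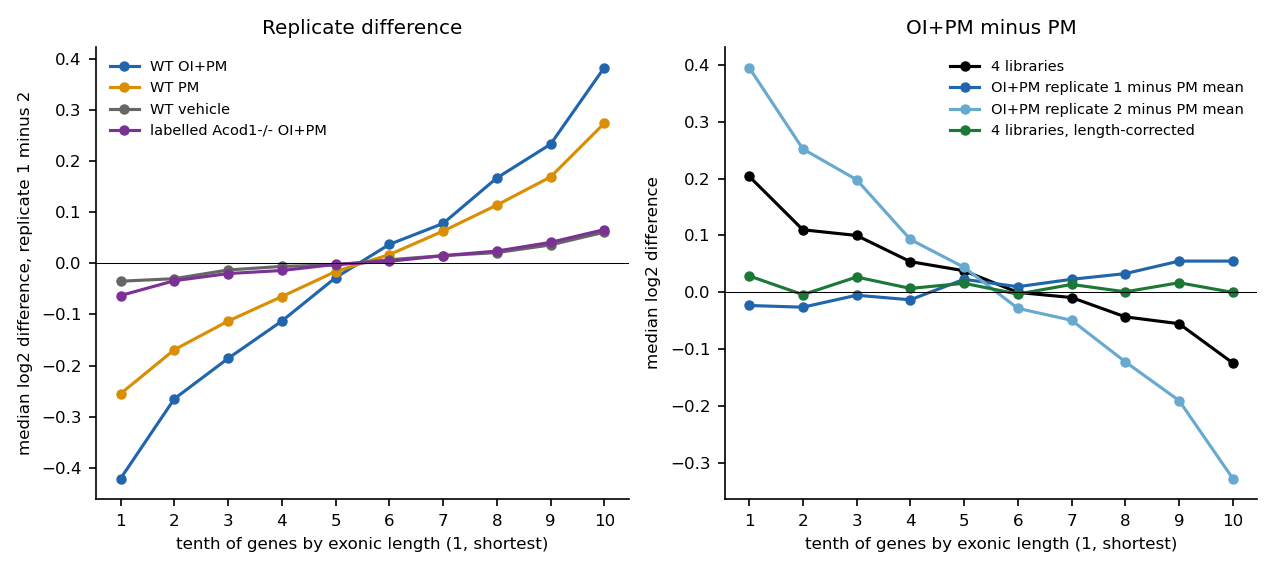
Left, the median log2 difference between replicates 1 and 2 in 10 bins of genes by exonic length for 4 pairs of libraries, which spans -0.42 to 0.38 for WT OI+PM. Right, the median log2 difference of OI+PM minus PM in the same bins, where OI+PM replicate 2 slopes from 0.40 to -0.33 against the PM mean and the length-corrected fit stays near 0.

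The same comparison in libraries labelled Acod1-/- shares no library with the WT one and asks whether the OI effect needs the cells' own itaconate. The gene count does not check that label: Acod1 was at 107.5 and 94.2 CPM with PM and 24.5 and 26.8 CPM with OI+PM there, the deleted part of the gene is not given in the sources used here, and counts over the whole gene cannot show it. OI changed 1003 genes (9.2% of genes tested) in these libraries, 200 higher (1.84%) and 803 lower (7.37%). The WT and Acod1-/- lists shared 891 genes, 170 higher and 721 lower, which is 79.8% of the WT DEGs and 88.8% of the others. The genes tested had been chosen by their CPM in the WT PM and WT OI+PM libraries. Genes below the CPM minimum there could not be counted in either list, so the 88.8% may be too high. Both comparisons also used the shared estimate of the spread, so they were not fully independent. No gene was called in opposite directions, and 1115 of the 1116 WT DEGs had the same sign. The test of the difference itself found 0 genes at an adjusted p of 0.05 or less (edgeR's quasi-likelihood test). At an unadjusted p under 0.05 the same test had 694 genes, where no difference would give a share of 0.05 of the 10898 tests. Both thresholds were passed by 0 genes with edgeR and by 2 genes with DESeq2. Without OI+PM replicate 1, 38 genes passed.

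Several of the genes described above can be set side by side. The log2 fold change of Nqo1 was 2.32 in WT and 2.32 in the libraries labelled Acod1-/-, that of Gclc 2.5 and 2.58, that of Tnf -1.34 and -1.22, that of Rtp4 -6.60 and -5.85, and that of Top2a -4.13 and -4.42. By list, the medians in WT and in the libraries labelled Acod1-/- were 1.13 and 1.13 for NRF2 targets, -0.98 and -1.17 for cytokines, -2.46 and -2.75 for ISGs, and -3.61 and -3.86 for mitosis genes. The integrated stress response had 0.78 and 0.43, with 12 genes higher and none lower in WT and 5 higher and 1 lower in the libraries labelled Acod1-/-. The difference between list medians was not tested. Il1b had -2.18 in WT and -3.45 in the libraries labelled Acod1-/-, and Ccnd1 had -2.37 and -1.63. Neither difference passed the adjusted p.

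**Figure D5:**
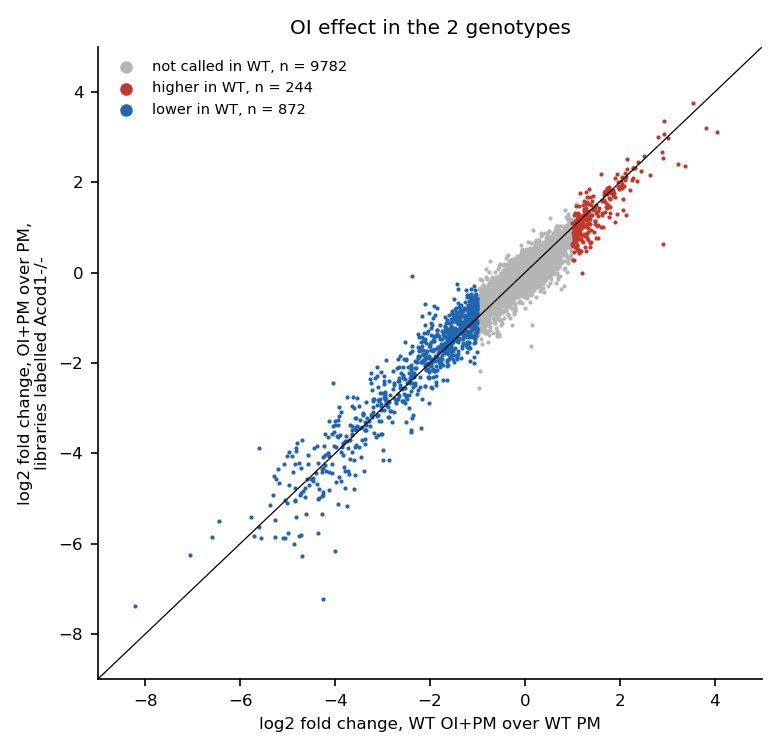
Log2 fold change of OI+PM over PM in WT libraries (x axis) and in libraries labelled Acod1-/- (y axis) for the 10898 tested genes, with the line of equal values. WT DEGs (244 red, 872 blue) lie along the line, and 1115 of 1116 have the same sign on both axes.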

How the data were processed

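RNA-seq was performed on 12 libraries in 6 groups of 2. Per the labels and the methods of the study, the authors sequenced single-end reads, ran FastQC 0.11.5, aligned with STAR 2.5.3a to GRCm38, used Picard 2.9.0 and counted reads per gene with featureCounts. The annotation release and the strand and multi-mapping settings are not given in the sources used here. The values deposited by the authors are raw read counts, in a table for each library.

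Genes with CPM above 1.5 in at least 2 of the 4 compared libraries were tested with edgeR 4.0.16 in R 4.3.3: TMM scaling, a quasi-likelihood test on 6 group means fitted to all 12 libraries, which share 1 estimate of the spread, and Benjamini-Hochberg adjustment over all 10898 genes. The thresholds for DEGs were 0.05 for the adjusted p and 1 for the size of the log2 fold change. The SE was taken as log2 fold change over √F. The study's cutoffs were of the same kind, made with DESeq2. The members and the gene lists were chosen with earlier results of these data known. Named genes were 8 genes fixed by name, the 10 largest increases and decreases among DEGs with a mean of at least 5 CPM and, in each list, up to 3 DEGs per direction and the most abundant member. The 10 largest in each direction also had to have groups that did not overlap, which held for every DEG. Other genes named beside the named genes were chosen after their values were seen. Exonic lengths and gene positions came from GENCODE M21 (GRCm38), and promoters from RefSeq (GRCm38.p6). The length correction subtracts a lowess curve (span 0.3) of each library's log2 deviation on log2 length. The fit was tested on simulated data, with an outcome that is not reported here. Alternatives were DESeq2 1.42.0, other scalings and count minimums, a replicate block, the length correction and leaving out each library. In fits that leave a group with 1 library, that library is assumed to vary like the other groups. Some genes of the lists are not reported here.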

Additional observations from a re-analysis of the deposited data

How the results depend on the processing

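No gene was called in opposite directions under any of the alternatives run, and of the 116 named genes none reversed. The 1116 DEGs (244 higher, 872 lower) became 721 (533 lower) with CPM above 1.5 required in all 4 libraries, which tests fewer genes, 705 (103 higher) when edgeR's glmTreat tested against a 2-fold change, and 4780 (2294 higher, 2486 lower) with no fold threshold. With a minimum of 10 counts over the 4 libraries 15088 genes were tested and 1669 were DEGs (390 higher, 1279 lower). Total count scaling, which moved the median of all genes to -0.10, gave 183 higher and 1001 lower. DESeq2 gave 1114 DEGs, 1110 of them shared. A fit of edgeR to the 4 compared libraries alone gave 1088 DEGs, 1079 of them shared. Without 1 library the count ranged from 1068 to 1302. The replicate numbers pair only 2 libraries per group and no shared animal or day is stated; same-numbered deviations of WT PM and WT OI+PM correlated at 0.77, and a replicate block gave 1113 DEGs, all 1113 shared. The count of genes whose OI effect differed between genotypes was 0 and became 2 with DESeq2, 5 with the length correction, 2 with length correction and replicate block, and 0 to 38 without 1 library. The cause of these shifts was not tested. List medians moved too, and the following are some of the shifts. With the minimum in all 4 libraries they were -0.57 for cytokines, -2.07 for ISGs, -0.61 for MHC class II, -1.55 for DNA replication, -2.95 for mitosis, -0.87 for scavenger receptors, 0.17 for alternative activation and -0.35 for matrix genes. With total count scaling they were 1.01 for NRF2 targets, -1.19 for MHC class II, -2.19 for DNA replication, -1.05 for scavenger receptors, 0.016 for alternative activation and -0.53 for matrix genes. With the length correction the medians were -1.12 for cytokines, -1.01 for identity genes and -0.47 for matrix genes. Matrix genes had -0.48 with length correction and replicate block. Fits without 1 library gave medians from -0.83 to -0.58 for NF-kB and -1.14 to -0.95 for MHC class II. Such fits also gave 0.083 to 0.12 for alternative activation and -0.37 to -0.32 for matrix genes. With no library left out the last 2 lists had 0.13 and -0.42. Calls near the threshold were lost without OI+PM replicate 2 for 9 named genes, without OI+PM replicate 1 for 3, and under total count scaling for 7. They were lost for 5 named genes with the length correction, alone or with the replicate block. Without PM replicate 1 the call of 1 named gene was lost, and without PM replicate 2 also that of 1. Depth limits genes near 1.5 CPM, and 2 libraries per group limit all SEs.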

Other observations

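Families of genes that share a symbol stem gave further counts, drawn up after the values were seen. All 8 tested Schlafen genes (Slfn), which interferon induces, fell with OI, from Slfn1 at -4.82 to Slfn10-ps at -1.36 on the log2 scale. Slfn2, the most abundant of those described here, was at 383.9 and 438.0 CPM with PM and at 102.5 and 144.4 CPM with OI+PM. Slfn genes are close copies of each other, so reads may have been divided among them. Of 15 genes with the stem Ifi 11 fell, and of 9 with the stem Ccl 7 fell. Of 29 kinesin genes (Kif) 14 fell, and of 8 aldo-keto reductase genes (Akr) 3 rose, Akr1b8, Akr1a1 and Akr1c13, with log2 fold changes of 1.19, 1.17 and 1.12. Solute carrier genes (Slc) were called in both directions, with 10 of 186 higher (5.38%) and 11 lower (5.91%), against 2.24% and 8.0% of all tested genes.

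Other single genes outside the lists were picked for their values and stand for no group. Clspn, which acts in the replication checkpoint, was at 31.1 and 29.7 CPM with PM and at 1.49 and 1.23 CPM with OI+PM (log2 fold change -4.47), and Fancd2, a DNA crosslink repair gene, had -4.13. Foxm1, a transcription factor of mitotic genes, had -3.83. Among genes that rose outside the lists, Nampt, which makes an NAD precursor, was at 290.9 and 263.0 CPM with PM and at 910.1 and 956.8 CPM with OI+PM (log2 fold change 1.75), Procr, the protein C receptor gene, at 172.5 and 179.8 CPM with PM and 602.6 and 851.5 CPM with OI+PM (2.04), and Ahr, the aryl hydrocarbon receptor gene, at 11.6 and 8.76 CPM with PM and 27.2 and 22.7 CPM with OI+PM (1.30). The groups did not overlap for any of these genes, which holds for every DEG. It also holds for 29.4% of all tested genes in the higher and 29.3% in the lower direction.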
